A study of Homo sapiens with 8 samples.

Results

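The genes described here are the clustered replication-dependent histone genes, chosen by name: protein-coding genes of hg38 whose current symbol is H2AC, H2BC, H3C or H4C followed by a number, and the linker histone genes H1-1 to H1-6. The rule gave 69 of 20033 protein-coding genes, with 6 H1, 17 H2AC, 18 H2BC, 13 H3C and 15 H4C members. Of these, 55 lie on chromosome 6, 13 on chromosome 1 and 1, H4C16, on chromosome 12. Peaks within 2 kb of either end of these genes, from 6 lists of HA-tagged RUNX1 binding, fell into 18 regions of the 33478 in the merged lists. A region shared by neighbouring genes was counted once, and 11 of the 18 were shared by 2 members.

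Binding was profiled by CUT&RUN, in which an antibody bound in permeabilized cells guides MNase to cut the DNA on either side of the bound sites, and the freed fragments are sequenced. The cells were HEL, an established erythroleukemia line. Separate HEL lines had been transduced with HA-tagged RUNX1-4A, HA-tagged RUNX1-4D, HA-tagged wild-type RUNX1 (WT) or an empty vector and kept in puromycin, and each gave 2 biological replicates, or 8 libraries in all. If the mutants follow common naming, A stands for alanine, a residue without a phosphate acceptor, and D for aspartate, whose charge mimics a phosphate, in place of serines or threonines. The labels describe no removal of the cells' own RUNX1, which the anti-HA antibody does not read, and the sources used here do not name the promoter of the transgene. Peaks had been called against the empty vector line, and each of the 6 RUNX1 libraries has its own list. A peak list measures binding and not expression, so markers of the cell line could not be checked. The replicate 1 lists held 6266 (4A), 5358 (4D) and 6764 (WT) peaks on chromosomes 1 to 22, X and Y, and the replicate 2 lists held 24251, 21122 and 25911. Read totals are not in the lists, so the depth is unknown. A gene without a peak is therefore called absent from a list and not unbound.

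Replication-dependent histone genes make the bulk of the histones in S phase, when newly copied DNA must be packed into nucleosomes. The H2A, H2B, H3 and H4 proteins form the nucleosome core and H1 binds the linker DNA. Their short genes have no introns, and their mRNAs end in a stem-loop in place of a poly(A) tail. The genes are transcribed together in nuclear histone locus bodies, where the coactivator NPAT is switched on by cyclin E and CDK2. RUNX1 is a transcription factor of blood cells that binds DNA with its partner CBFB at the core word TGTGGT.

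The promoters below are those of the members called in both WT replicates that lie nearest to their region, H1-2, H1-5, H4C9 and H4C2, and of H2AC4 and H4C4, which were called in every replicate 2 list. Each sequence runs 5′ to 3′ from 250 bases before the gene start to 50 bases after it, from RefSeq on GRCh38.p14. Capitals mark every match to the motifs searched, on either strand. The positions are chr6:26056421-26056720, minus strand for H1-2, chr6:27867539-27867838, minus strand for H1-5, chr6:27139032-27139331, plus strand for H4C9, chr6:26027234-26027533, minus strand for H4C2, chr6:26033569-26033868, minus strand for H2AC4 and chr6:26189063-26189362, minus strand for H4C4.
H1-2: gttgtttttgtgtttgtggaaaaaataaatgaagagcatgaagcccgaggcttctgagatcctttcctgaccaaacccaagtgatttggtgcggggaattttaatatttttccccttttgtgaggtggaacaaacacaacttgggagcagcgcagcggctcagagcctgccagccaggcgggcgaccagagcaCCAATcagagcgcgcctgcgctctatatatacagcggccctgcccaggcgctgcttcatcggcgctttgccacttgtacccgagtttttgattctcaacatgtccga
H1-5: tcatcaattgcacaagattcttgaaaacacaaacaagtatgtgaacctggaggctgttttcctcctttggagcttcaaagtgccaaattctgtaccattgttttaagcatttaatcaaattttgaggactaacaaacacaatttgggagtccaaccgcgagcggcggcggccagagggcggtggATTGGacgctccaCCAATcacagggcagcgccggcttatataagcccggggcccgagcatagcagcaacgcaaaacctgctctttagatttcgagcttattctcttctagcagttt
H4C9: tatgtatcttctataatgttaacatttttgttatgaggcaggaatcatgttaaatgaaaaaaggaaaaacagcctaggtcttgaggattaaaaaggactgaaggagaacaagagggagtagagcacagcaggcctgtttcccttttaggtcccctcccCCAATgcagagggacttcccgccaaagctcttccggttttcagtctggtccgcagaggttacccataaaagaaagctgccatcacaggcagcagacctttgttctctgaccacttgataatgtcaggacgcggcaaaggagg
H4C2: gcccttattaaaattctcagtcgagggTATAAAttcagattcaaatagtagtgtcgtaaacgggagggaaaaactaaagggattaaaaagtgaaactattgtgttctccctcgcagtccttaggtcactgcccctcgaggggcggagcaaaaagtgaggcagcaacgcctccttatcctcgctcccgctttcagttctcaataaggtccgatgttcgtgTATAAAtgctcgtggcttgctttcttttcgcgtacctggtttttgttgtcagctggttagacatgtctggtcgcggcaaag
H2AC4: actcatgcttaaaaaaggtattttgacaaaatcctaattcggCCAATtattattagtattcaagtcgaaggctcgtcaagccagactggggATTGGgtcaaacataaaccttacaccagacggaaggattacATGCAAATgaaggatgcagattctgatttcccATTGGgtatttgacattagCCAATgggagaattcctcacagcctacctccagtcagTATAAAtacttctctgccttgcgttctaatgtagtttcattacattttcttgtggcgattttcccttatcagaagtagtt
H4C4: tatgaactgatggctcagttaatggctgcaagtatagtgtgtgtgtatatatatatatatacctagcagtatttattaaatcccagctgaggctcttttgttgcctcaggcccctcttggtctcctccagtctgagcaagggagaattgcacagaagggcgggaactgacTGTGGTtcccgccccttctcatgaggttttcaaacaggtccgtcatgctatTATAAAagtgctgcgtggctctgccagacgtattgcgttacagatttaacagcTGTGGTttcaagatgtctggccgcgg
The H1-2, H1-5 and H4C9 promoters carry CCAAT boxes and no TATA box of the letters TATAAA, H2AC4 has CCAAT boxes, an octamer and a TATA box, and the H4C2 and H4C4 promoters have a TATA box and no CCAAT box. Only the H4C4 promoter of these 6 holds the RUNX word TGTGGT, at 80 bases before and 24 bases after the start.

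A smaller share of histone genes than of protein-coding genes as a whole had a peak within 2 kb in each of the 6 lists. Where a line is given 2 values, the first is replicate 1 and the second replicate 2. Of the 69 members, 1 was called in 4A replicate 1 and 19 in 4A replicate 2, 2 in 4D replicate 1 and 10 in 4D replicate 2, and 8 in WT replicate 1 and 21 in WT replicate 2. As shares of the members these are 1.45 and 27.5% in 4A, 2.90 and 14.5% in 4D, and 11.6 and 30.4% in WT. Of all 20033 protein-coding genes, 14.8 and 42.3% were called in 4A, 13.2 and 37.6% in 4D, and 18.3 and 42.4% in WT. Within 10 kb the order turned in 3 libraries, with 55.1% of members against 54.8% of all genes in 4A replicate 2, 27.5 against 26.2% in WT replicate 1 and 56.5 against 54.9% in WT replicate 2. In any list at all, within 2 kb, 26 members (37.7%) were called, against 48.8% of all protein-coding genes, and 43 members were called in none. No member had a region called in all 6 libraries, which 9.90% of all protein-coding genes had. Members called in exactly 1, 2, 3, 4 and 5 libraries numbered 9, 7, 5, 2 and 3. All 3 replicate 2 lists called 9 members (13%, against 33.1% of all protein-coding genes), and at least 1 replicate 1 list called 8 (11.6%, against 21.6%).

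Histone genes are short, with a median span of 494 bp against 24130 bp for all protein-coding genes, so the stretch searched was also shorter (median 4494 against 8001 bp). Set beside other genes of at most 1 kb, the order turned in 5 of the 6 lists, in 4D replicate 1 through 1 peak that counts for both H2AC16 and H1-5. Among the 61 members of that length, 1.64 and 27.9% were called in 4A, 3.28 and 13.1% in 4D, and 11.5 and 31.1% in WT. Among the 467 other protein-coding genes of that length, 2.36 and 6.85% were called in 4A, 1.71 and 7.92% in 4D, and 3.0 and 9.21% in WT. Histone genes thus stood below genes in general and, outside 4A replicate 1, above other short genes. Counting only peaks within 2 kb of a start, which searches the same length around each start, 1.56 and 26.6% of the 64 members with an annotated promoter were called in 4A, 3.12 and 10.9% in 4D, and 9.38 and 29.7% in WT. The matching shares of 15842 protein-coding genes were 14.6 and 42.3% in 4A, 13.3 and 37.5% in 4D, and 18.2 and 42.4% in WT. A gene with more than 1 start was searched around each, so the length searched per gene was not equal. Both comparisons were chosen after the data had been seen.

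**Figure D1:**
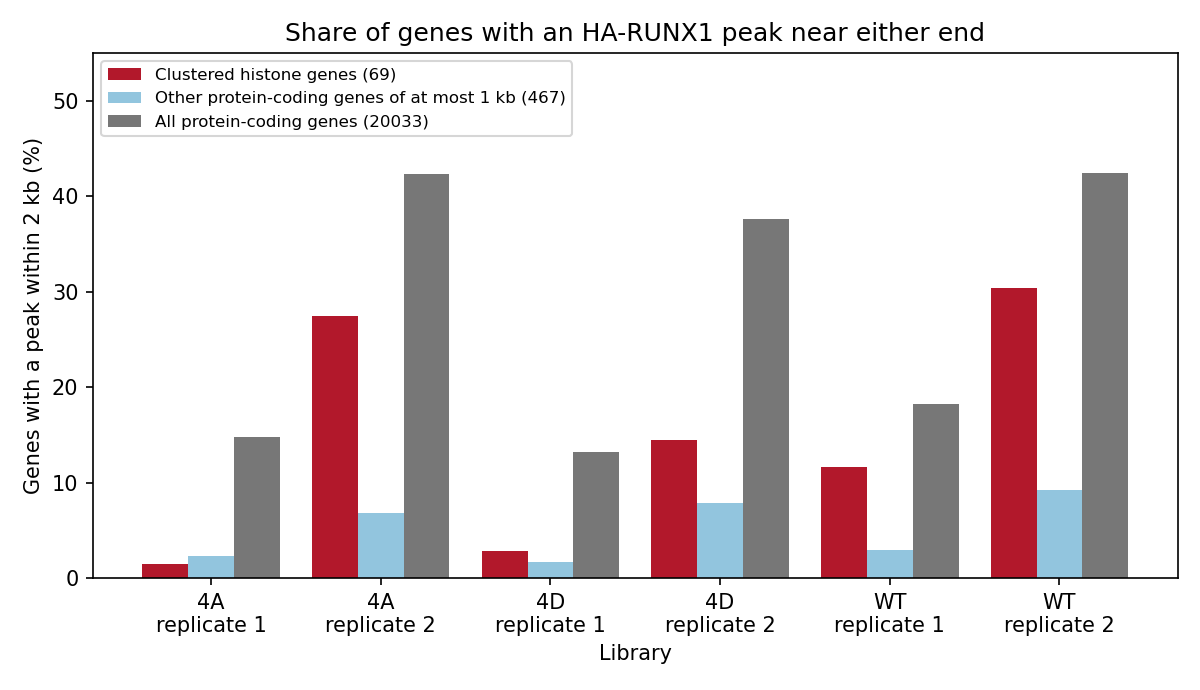
Share of genes with an HA-RUNX1 peak within 2 kb of either end (y axis, percent) in each library (x axis), for the 69 clustered histone genes (red), the 467 other protein-coding genes of at most 1 kb (blue) and all 20033 protein-coding genes (grey). Each bar is 1 library, and the histone bars lie below the grey bars in all 6 libraries, at 1.45 to 30.4% against 13.2 to 42.4%.

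The peaks that were called at histone genes ranked low in their lists. Ranks are given as the percentile of the authors' −log10 q within a list, where 100 is the strongest peak. The median percentile over histone peaks was 4.11 (1 peak) and 28.2 (14 peaks) in 4A, 18.3 (1 peak) and 28.0 (7 peaks) in 4D, and 12.1 (5 peaks) and 27.9 (13 peaks) in WT. Peaks within 2 kb of any protein-coding gene had medians of 47.8 and 51.8 in 4A, 51.3 and 49.5 in 4D, and 49.2 and 52.2 in WT. The median fold enrichment over background, a linear ratio given by the authors, was 3.82 at histone genes and 5.20 at all gene ends in 4A replicate 2, 4.40 and 5.62 in 4D replicate 2, and 4.77 and 6.38 in WT replicate 2. The highest percentile among the 41 histone peaks was 87.8.

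**Figure D2:**
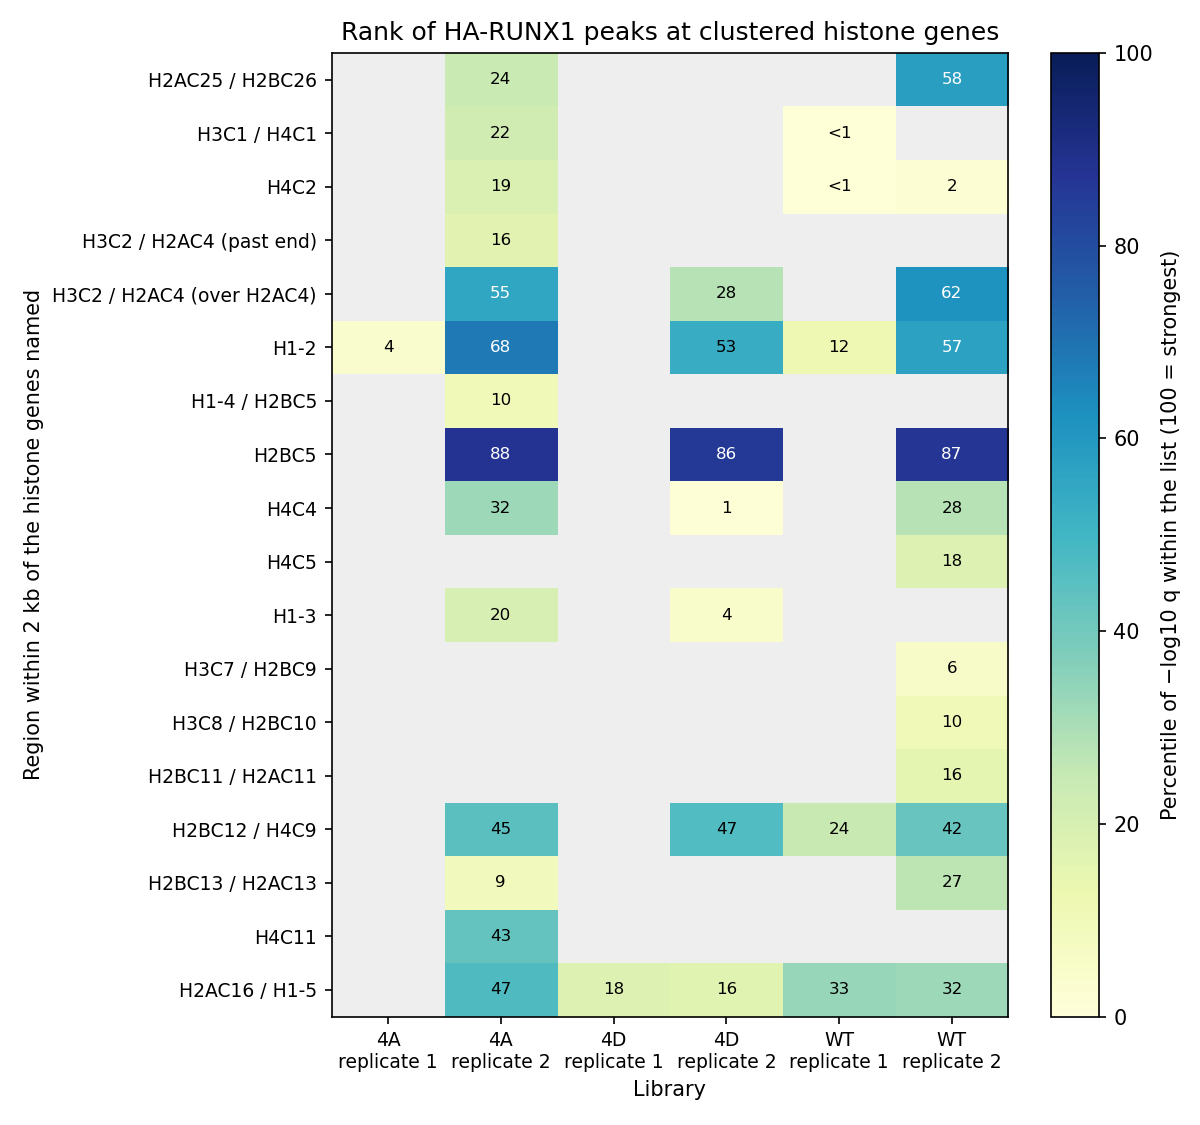
The 18 regions within 2 kb of clustered histone genes (rows, named by the genes they count for, in genome order) in the 6 libraries (columns). Colour and number give the percentile of the peak's −log10 q within its list, and grey means no peak. The row for H2BC5 is the darkest, at 85.8 to 87.8 in the 3 replicate 2 libraries, and no row is filled in all 6 columns.

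Among the linker histone genes, 4 of 6 (66.7%) were called in at least 1 list, against 37.7% of all members and 48.8% of all protein-coding genes. H1-2 and H1-5 encode linker histones of dividing somatic cells. The H1-2 region (chromosome 6, 26055295 to 26056455) was called in 5 libraries, with −log10 q of 2.09 and 17.3 in 4A, 11.1 in 4D replicate 2, and 3.94 and 12.6 in WT. Fold enrichment there was 3.20 and 5.00 in 4A, 4.77 in 4D replicate 2, and 3.90 and 5.13 in WT. It was not called in 4D replicate 1, the shortest list. The summits of its 5 peaks lay 140 to 242 bp past the 3′ end of the gene. The H1-2 promoter shown above was covered for 35 of its 300 bases, all at its downstream edge and by the 4A replicate 2 peak alone.

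The H1-5 region (27866676 to 27867633) covered the gene from end to end and counts for H2AC16 as well, which lies 878 bp away. Its −log10 q was 9.17 in 4A replicate 2, 3.62 and 3.87 in 4D, and 7.36 and 6.42 in WT, and it was not called in 4A replicate 1. Summits differed more than at H1-2, from 7 bp before the start in 4D replicate 2 to 757 bp after it in 4D replicate 1. H1-3 had peaks in the replicate 2 lists of 4A (−log10 q 4.05) and 4D (2.01), with summits 87 and 206 bp past its 3′ end. H1-4 had a peak only in the second 4A library (−log10 q 2.80), with the summit 141 bp past its 3′ end. H1-1, and H1-6, a linker histone gene of the testis, were not called, and their nearest regions lay 3697 and 49027 bp away.

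The core histone genes encode the proteins of the nucleosome core. Of these, H4C members were called in 6 of 15 cases (40.0%) and H2BC in 7 of 18 (38.9%). H3C members were called in 4 of 13 (30.8%) and H2AC in 5 of 17 (29.4%). Each share lies below the 48.8% of all protein-coding genes called in any list. H4C9 lies inside the long annotated span of H2BC12 on the other strand, so 1 region (27139234 to 27140072) counts for both. That region had −log10 q of 8.52 in 4A replicate 2, 9.41 in 4D replicate 2, and 5.78 and 8.34 in WT, with summits 81 to 210 bp after the start of H4C9. At H4C2 the region (26027000 to 26027357) had −log10 q of 3.94 in 4A replicate 2 and of 1.66 and 1.80 in the WT libraries. The WT values lie near the lowest of their lists, at percentiles of 0.673 and 2.13. H4C2 was not called in either 4D library.

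The H2AC4 region (26033224 to 26033735) was called in the replicate 2 libraries alone, with −log10 q of 11.6 in 4A, 5.65 in 4D and 14.6 in WT. Its summits fell 99 to 149 bp after the start, and it counts for H3C2 as well. H4C4 (26188628 to 26189194) was called in the same 3 libraries, with −log10 q of 6.05 in 4A, 1.5 in 4D and 5.66 in WT. The divergent genes H2AC25 and H2BC26 on the long arm of chromosome 1 share a region (228457416 to 228458012) found in the replicate 2 lists of 4A (−log10 q 4.73) and WT (13). A further region, 4075 bp from that pair (chromosome 1, 228451947 to 228453289), was called in all 6 libraries but lies beyond 2 kb.

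Apart from a region past H2BC5, the remaining regions were called in 1 or 2 libraries. Of 7 regions found in a single library, 3 were in 4A replicate 2, 4 in WT replicate 2 and 0 in 4D replicate 2. Those of 4A had summits past the 3′ ends of H4C11 (−log10 q 8.09), H2AC4 (3.66) and H1-4, and those of WT had summits past H4C5 (4.27) and at H2BC9 (2.44), H2BC10 (3.11) and H2AC11 (3.76). A region inside H4C1 (26021484 to 26021943), counted for H3C1 as well, had −log10 q of 4.44 in 4A replicate 2 and 1.66 in WT replicate 1. At H2BC13 and H2AC13 the region (27807558 to 27808025) had 2.64 in 4A replicate 2 and 5.55 in WT replicate 2. Of the 18 regions, 13 were called in replicate 2 lists alone. The replicate 2 lists are also the longer ones, and no matching share of all merged regions is given here. These counts therefore do not set histone regions apart from other regions.

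The region with the highest rank lies 396 bp past the far end of H2BC5 (chromosome 6, 26171745 to 26172227), where the annotation of that gene runs 13229 bp from its start, and inside the antisense lncRNA gene H2BC6-AS1. Its −log10 q was 39.2 in 4A, 34.3 in 4D and 37.4 in WT in the replicate 2 lists, with fold enrichments of 13, 13.7 and 15.3. It was not called in any replicate 1 list. The other regions at histone genes had fold enrichments between 2.49 and 7.38. Its summits lay 13791 to 13842 bp from the H2BC5 start, so it meets the rule only through the long annotated form of the gene.

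Summits at histone genes lay in or after the gene, seldom before the start. Each summit was assigned to the nearest gene body, and 25 of 41 (61.0%) fell inside a histone gene, 14 (34.1%) past a 3′ end and 2 (4.88%) before a start. These 2 were 7 bp (H1-5) and 15 bp (H2BC10) before the start. Around other protein-coding genes of at most 1 kb, 16.9% of 124 summits fell inside the gene, 30.6% past the 3′ end and 52.4% before the start. Around other protein-coding genes of any length, 53.6% of 29990 summits fell inside, 5.07% past the 3′ end and 41.3% before the start. Left out of these comparison groups were 36 and 2982 summits nearest to a gene of unknown strand. The summits inside H4C1, whose strand is also unknown, were kept among the 41. The 41 summits come from 18 regions, with several libraries at 1 region, and no test was made. Of the 64 members with a promoter entry, 12 had some of the 300 bases under a merged region, most of all H2AC25 (189 bases), H2AC4 (167) and H2BC26 (160). No matching share of all promoters is given here, so this count does not set histone promoters apart from others.

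**Figure D3:**
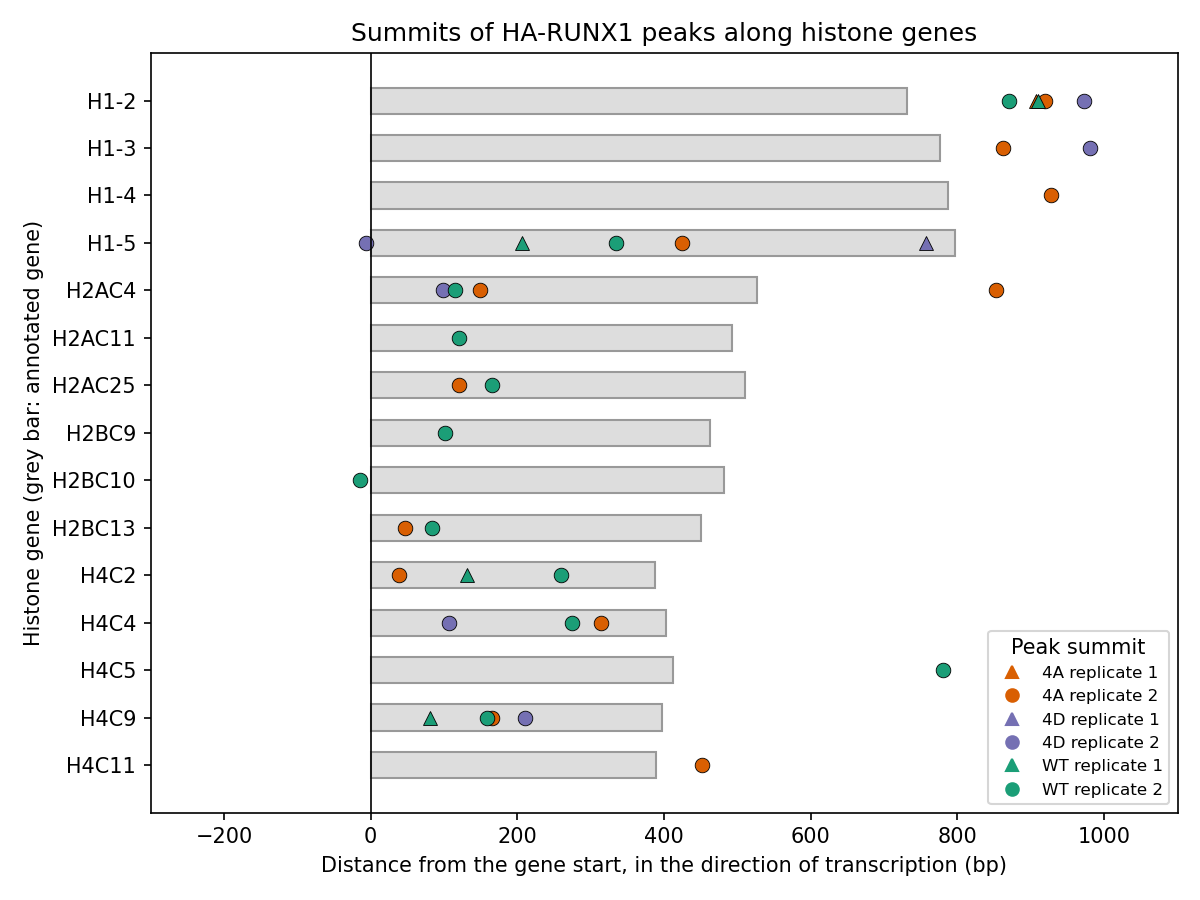
Position of peak summits along 15 histone genes, in bp from the gene start in the direction of transcription (x axis). Grey bars are the annotated genes, colours the lines, triangles replicate 1 and circles replicate 2. The 36 summits plotted leave out those at H2BC5, which lie over 13 kb from its start, and at H4C1. The 5 summits of H1-2 lie past the 3′ end, and only those of H1-5 (7 bp) and H2BC10 (15 bp) lie before a start.

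Divergent H2A and H2B genes share 1 short promoter. Among the members, 11 such pairs had their starts facing each other across a gap of 193 to 247 bp. A region covered some of the gap in 2 of them, H2AC25 with H2BC26 and H2BC13 with H2AC13. At the pair of H2BC11 and H2AC11 a weak peak of WT replicate 2 (−log10 q of 3.76) lay inside H2AC11. The other 8 pairs had no peak within 2 kb in any list. A call in any list was thus found at 3 of 11 pairs, where 37.7% of single members and 48.8% of all protein-coding genes had one.

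By position, calls were uneven across the clusters. Members were parted into clusters wherever neighbours lay over 300 kb apart. In some list 48.8% of all protein-coding genes were called. In the first cluster of chromosome 6, from H2AC1 to H4C8 over 559 kb, 15 of 34 members (44.1%) were called in some list. Its counts were 1 and 10 in 4A, 0 and 6 in 4D, and 4 and 11 in WT. As shares these are 2.94 and 29.4% in 4A, 0 and 17.6% in 4D, and 11.8 and 32.4% in WT. All protein-coding genes had 14.8 and 42.3% in 4A, 13.2 and 37.6% in 4D, and 18.3 and 42.4% in WT. In the next, from H2BC11 to H2AC12 over 15.2 kb, 4 of 5 (80.0%) were called, through 2 regions. In the last, from H2BC13 to H2BC17 over 86.4 kb, 5 of 16 (31.2%) were called. On chromosome 1, the cluster from H2BC18 to H2AC21 holds 11 members over 105 kb and had no region of any list, the nearest lying 28.0 kb outside it. Some genes there are near-copies, and the promoters of H4C14 and H4C15 are identical over 300 bases, so a short read within them cannot be assigned to 1 gene, and the part of this in the missing calls was not tested. The testis histone genes H2AC1 and H2BC1 lay 60354 and 61068 bp from the nearest region, and H4C16 lay 53.8 kb from one. Uncalled members had a median distance of 11445 bp to the nearest region of any list.

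The members called in no list were H1-1 and H1-6 of the H1 genes, H2AC1, H2AC6, H2AC7, H2AC8, H2AC12, H2AC14, H2AC15, H2AC17, H2AC18, H2AC19, H2AC20 and H2AC21 of the H2A genes, and H2BC1, H2BC3, H2BC4, H2BC6, H2BC7, H2BC8, H2BC14, H2BC15, H2BC17, H2BC18 and H2BC21 of the H2B genes. Of the H3 genes they were H3C3, H3C4, H3C6, H3C10, H3C11, H3C12, H3C13, H3C14 and H3C15, and of the H4 genes H4C3, H4C6, H4C7, H4C8, H4C12, H4C13, H4C14, H4C15 and H4C16. Called and uncalled members lay in the same cluster, as H2AC4 and H2AC6 did.

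Other protein-coding genes lying wholly inside the clusters numbered 7, and 1 of them was called. TRIM38, a ubiquitin ligase of innate immune signalling, had a region (chromosome 6, 25991858 to 25993233) in all 6 libraries, with −log10 q of 8.93 and 96.7 in 4A, 11.8 and 73.9 in 4D, and 22.4 and 63.4 in WT. It lies wholly outside the annotated gene, which spans 25962802 to 25991231. FCGR1A, HFE, SLC17A2, SLC17A3, SLC17A4 and LOC124904411 had no peak within 2 kb in any list. At the threshold, the farthest called member was H3C8, 1486 bp from its region, and the nearest uncalled member was H3C10, 2026 bp from the closest one.

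Each form of RUNX1 was then set against WT, to ask whether the mutant forms were found at a different set of histone genes. Both replicates called 1 member in 4A (H1-2), 2 in 4D (H2AC16 and H1-5) and 6 in WT (H1-2, H2BC12, H4C9, H4C2, H2AC16 and H1-5). Counted as regions, these were 1 in 4A, 1 in 4D and 4 in WT. The 4D peaks at H1-5 share no base between replicates and were joined through peaks of other libraries. With windows around the summits merged in place of whole peaks the 4D set held 0 members, so no member was then in the 4D set and not the 4A set. The shares with whole peaks are 1.45, 2.90 and 8.70% of members, against 14.7, 13.2 and 18.1% of all protein-coding genes. No member was in the 4A or the 4D set and not in the WT set, where the background shares are 2.14 and 1.39%. In the WT set and not the 4A set were 5 members (7.25%, against 5.56% of all genes). In the WT set and not the 4D set were 4 (5.80%, against 6.31%). Between the mutants, H2AC16 and H1-5 were in the 4D set and not the 4A set (2.90%, against 2.74%), and H1-2 the other way round (1.45%, against 4.25%). All of these genes were called in replicate 2 of the line whose set lacks them, except H4C2 in 4D.

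The number of members called per library averaged 10.0 ± 12.7 in 4A, 6.0 ± 5.66 in 4D and 14.5 ± 9.19 in WT (SD, n = 2 each). Within replicate 1 the counts were 1 in 4A, 2 in 4D and 8 in WT, and within replicate 2 they were 19, 10 and 21. These are counts of genes, and 1 region can count for 2 of them. Counted as regions, they were 1 and 14 in 4A, 1 and 7 in 4D, and 5 and 13 in WT. Region counts were not tested. The difference in genes called was −4.50 for 4A minus WT (exact permutation p = 0.667, two-sided), −8.50 for 4D minus WT (exact p = 0.667) and −4.00 for 4D minus 4A (exact p = 1.00). With 2 libraries against 2, p cannot go below 0.333. Over the 3 lines together the exact permutation p was 0.733, the smallest possible being 0.0667. The counts of the 3 lines overlapped, from 1 to 19 in 4A, 2 to 10 in 4D and 8 to 21 in WT, and WT also has the longest list within each replicate number. With lists of equal length within each replicate number, the counts were 0 and 16 in 4A, 2 and 10 in 4D, and 4 and 13 in WT. The difference was then −0.500 for 4A minus WT (exact p = 1.00) and −2.50 for 4D minus WT (exact p = 0.667), and in replicate 2 the count was higher in 4A than in WT. With all lists shortened to the 5358 strongest peaks, no member was in the set of any line, and H2BC5 was the only member called in the 3 replicate 2 lists.

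Genes that serve histone supply were called more often than the histone genes themselves. Of 18 genes for making and processing histone mRNA, 5 and 14 were called in 4A, 5 and 11 in 4D, and 4 and 15 in WT. These are 27.8 and 77.8% in 4A, 27.8 and 61.1% in 4D, and 22.2 and 83.3% in WT. The shares of all protein-coding genes were 14.8 and 42.3% in 4A, 13.2 and 37.6% in 4D, and 18.3 and 42.4% in WT, closest to the list in WT replicate 1. NPAT, the coactivator of histone gene transcription, CDK2, the kinase that activates it, and SLBP, the stem-loop binding protein, had regions in all 6 libraries. The NPAT region (chromosome 11, 108222262 to 108223918) had −log10 q of 22.9 and 64.7 in 4A, 11.2 and 36.0 in 4D, and 14.6 and 52.7 in WT. At SLBP (chromosome 4, 1711757 to 1713002) it was 2.64 and 21.5 in 4A, 6.27 and 11.6 in 4D, and 7.02 and 17.8 in WT. At CDK2 (chromosome 12, 55972893 to 55974088) it was 10.4 and 9.43 in 4A, 10.5 and 17.5 in 4D, and 13.1 and 15.0 in WT. This CDK2 region lies wholly outside the annotated gene, which spans 55966830 to 55972789, and counts only through the 2 kb rule. The NPAT and SLBP regions run past the ends of their genes, which span 108157215 to 108222638 and 1692731 to 1712319. They need not belong to these genes alone. CPSF2 and CSTF2, cleavage and polyadenylation factors, had no peak within 2 kb in any list.

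Of 16 histone genes outside the naming rule, among them variants made throughout the cell cycle, 2 and 9 were called in 4A, 2 and 9 in 4D, and 4 and 8 in WT. In replicate 1 these are 12.5% in 4A, 12.5% in 4D and 25% in WT, against 14.8, 13.2 and 18.3% of all protein-coding genes. There 4A and 4D lay slightly below that background and WT above it. In replicate 2 the share was 56.2% in both 4A and 4D, against 42.3 and 37.6% of all protein-coding genes. The 8 of 16 genes called in WT replicate 2 were also a larger share than the 42.4% of all protein-coding genes. H2AX, the variant phosphorylated at DNA breaks, and H2AZ2, an H2A.Z gene, had regions in all 6 libraries. The H2AZ2 region (chromosome 7, 44847219 to 44848640) had −log10 q of 20.0 and 33.3 in 4A, 14.5 and 35.4 in 4D, and 25.6 and 30.7 in WT. The H2AX region (chromosome 11, 119094613 to 119095786) had 15.6 and 18.8 in 4A, 6.96 and 20.7 in 4D, and 17.6 and 22.0 in WT. H3-3A and H3-3B, both H3.3 genes, were called in WT replicate 1 and in each replicate 2 library.

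Of 21 histone chaperone genes, 6 and 17 were called in 4A, 5 and 12 in 4D, and 6 and 16 in WT. ASF1B, HAT1, CABIN1 and DAXX had regions in all 6 libraries. The ASF1B region (chromosome 19, 14117364 to 14118345) lies wholly outside the annotated gene, which spans 14119512 to 14136589. Of 33 DNA replication genes, 9 and 22 were called in 4A, 9 and 18 in 4D, and 11 and 19 in WT, with RFC2, RPA2, POLD1, CDC6, MCM3 and ORC6 among those in all 6. A region in all 6 was found at 4 of the 21 and 7 of the 33 genes, against 9.90% of all protein-coding genes. In replicate 1, 28.6% of the 21 genes were called in 4A, 23.8% in 4D and 28.6% in WT. Of the 33 genes these shares were 27.3, 27.3 and 33.3%, and of all protein-coding genes 14.8, 13.2 and 18.3%. In replicate 2 the shares of these 21 and 33 genes ran from 54.5 to 81.0%, where clustered histone genes had 14.5 to 30.4% and all protein-coding genes 37.6 to 42.4%. Gene length was not adjusted for in these counts.

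**Figure D4:**
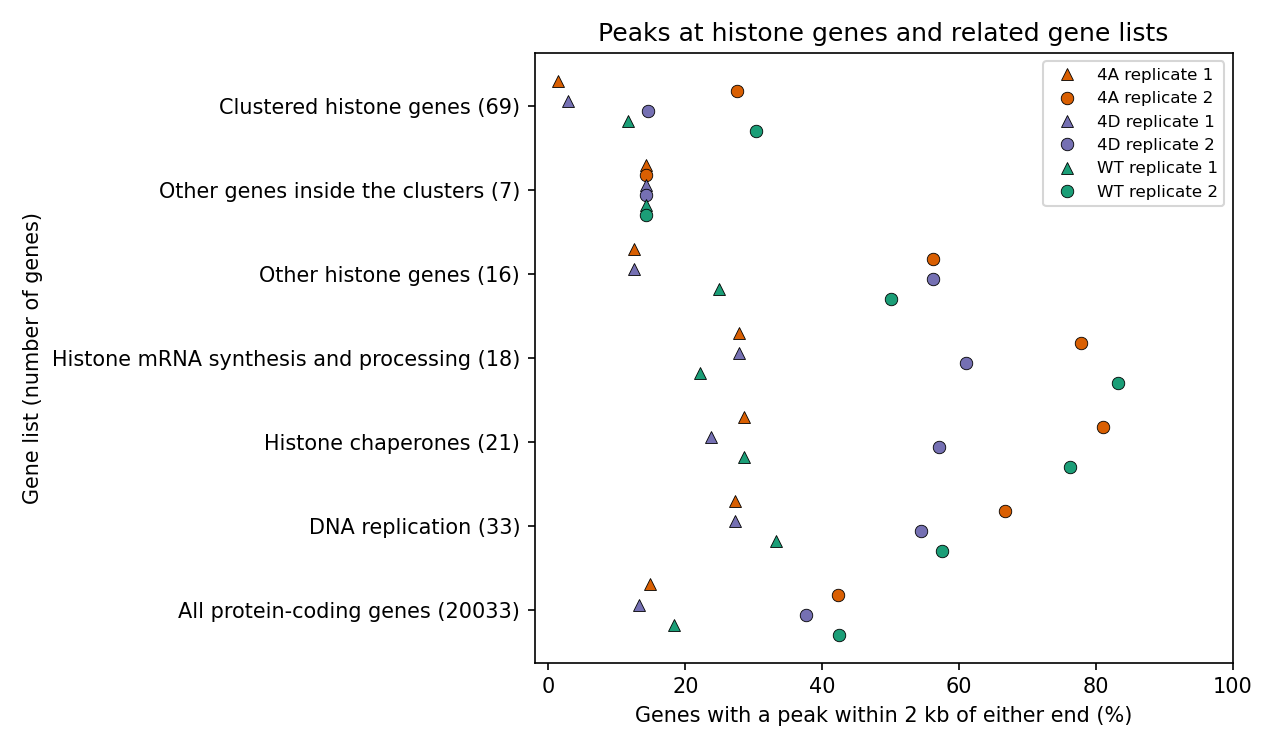
Share of genes with a peak within 2 kb of either end (x axis, percent) for the clustered histone genes, related gene lists and all protein-coding genes (rows, with the number of genes). Each point is 1 library, triangles replicate 1 and circles replicate 2, coloured by line. In replicate 2 the clustered histone genes lie at 14.5 to 30.4%, against 61.1 to 83.3% for genes of histone mRNA synthesis and processing.

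The promoters of the histone genes were searched for motifs on both strands and set beside the promoters of 15842 protein-coding genes. The RUNX word TGTGGT was held by 9 of 64 histone promoters (14.1%), against 14.5% of all promoters, and the variant TGCGGT by 6 (9.38%, against 11%). A CCAAT box was held by 54 (84.4%, against 42.1%), a TATA box of letters TATAAA by 43 (67.2%, against 12.4%) and the octamer ATTTGCAT by 26 (40.6%, against 2.22%). E2F words TTTGGCGC or TTTCGCGC were held by 12 (18.8%, against 1.99%), the GATA word AGATAA by 5 (7.81%, against 10.2%) and the ETS word CCGGAAGT by 1 (1.56%, against 6.97%). The octamer, a site of OCT1, was held by 14 of 18 H2BC and 11 of 16 H2AC promoters, but by 0 of 6 H1 and 0 of 13 H4C promoters. Since divergent pairs share their promoter, 1 match can count for both genes of a pair. The RUNX word was held by 4 of 25 called and 5 of 39 uncalled members. It lay under a merged region at H4C4, with both of its matches, and at H2BC10. Of the H4C4 peaks, only that of WT replicate 2 covered the whole word before the start. The word after the start lay under the peaks of all 3 replicate 2 lists, of which the 4D peak had a percentile of 1.33. The H2BC10 region is 1 peak of WT replicate 2 (−log10 q of 3.11). No summit lay within these words. At least 2 such words were held by 2 of 64 histone promoters, H4C4 and H3C2, and by 1.43% of all promoters. Neither word of H3C2 lay under a region. A match is a description of these 300 bases, and sequence under the summits outside them was not analysed here.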

How the data were processed

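CUT&RUN with an anti-HA antibody was done on HEL lines carrying RUNX1-4A, RUNX1-4D, WT RUNX1 or an empty vector, with 500000 cells a sample and 12 PCR cycles, per the labels' protocols. The submitters' processing notes name MACS2 2.2.7.1, Bowtie2 2.4.2, cutadapt 3.4, deepTools 3.5.1 and Picard 2.25.6 and hg38, and per the series design the empty vector line was the background. The sources used here do not state read filters or any pooling of the background. Each deposited list holds a peak's position, summit, score, fold enrichment over background (a linear ratio), −log10 p-value and −log10 q-value. These values are the authors' own and were used within a list only.

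Genes came from RefSeq (GRCh38.p14), and promoter sequences were matched for 64 of 69 members. A gene was called in a library when any base of a peak lay within 2 kb of either gene end. Peaks of the 6 lists were merged where they shared at least 1 bp, and a line's set needs a region called in both replicates. Calls and merging were tested on simulated peaks. Lines were compared by exact permutation over libraries (Python 3.11.15, numpy 2.4.6, pandas 2.3.3). The members, lists and alternatives were chosen with earlier results of these data known. The rule for named genes took members with a region in all 6 libraries (there were none), members in the set of 1 line and not of another, members called in no library, the members just inside and outside 2 kb, and list genes with a region in all 6 libraries, at most 8 a list. All other genes named were chosen after their values were seen. Replicates share only a number in the labels.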

Additional observations from a re-analysis of the deposited data

How the results depend on the processing

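The number of histone genes called changed with list length and distance. With 1 kb in place of 2 kb the counts were 1 and 19 in 4A, 1 and 8 in 4D, and 7 and 18 in WT. The differences were then −2.50 for 4A minus WT, −8.00 for 4D minus WT and −5.50 for 4D minus 4A. With 10 kb the counts were 4 and 38 in 4A, 6 and 25 in 4D, and 19 and 39 in WT, the sets held 4 (4A), 6 (4D) and 19 (WT) members, 1 region was called in all 6 libraries, and the members' share stood above that of all protein-coding genes in 3 libraries. With a −log10 q of at least 5 the counts were 0 and 10 in 4A, 0 and 6 in 4D, and 4 and 13 in WT, and the 4A and 4D sets held 0. With all lists at one length the counts were 0 and 1 in 4A, 2 and 1 in 4D, and 4 and 1 in WT, each set held 0, and the difference of 4D minus 4A turned to 1.00 (exact p = 0.667). With lists trimmed to equal length per replicate number, members called were 0 and 16 in 4A, 2 and 10 in 4D, and 4 and 13 in WT, the 4A set held 0, and the differences were −0.500 for 4A minus WT (exact p = 1.00), −2.50 for 4D minus WT (exact p = 0.667) and −2.0 for 4D minus 4A (exact p = 1.00), with a between-line sum of squares of 7.0. With merged summit windows the 4D set held 0. Leaving out replicate 1 or replicate 2 gave 1 to 19 members in 4A, 2 to 10 in 4D and 8 to 21 in WT, 0 to 6 regions called in all remaining libraries, and differences of −7 to −2 (4A minus WT), −11 to −6 (4D minus WT) and −9 to 1 (4D minus 4A), the cause not being tested. Sharing a replicate number is no pairing in the labels, and permuting within the replicate block gave an exact p of 0.500 for 4A minus WT (−4.50), 0.500 for 4D minus WT (−8.50), 1.00 for 4D minus 4A (−4.00) and 0.333 over the 3 lines (between-line sum of squares 72.3). Within the block p cannot fall below 0.500 for a pair or 0.167 over 3 lines, so both values of 0.500 are the smallest possible, and without the block the limits are 0.333 and 0.0667. These tests say nothing about stability. Depth is unknown, so uncalled genes may lie under the limit of the shorter lists.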
